A study of Rattus norvegicus with 42 samples.

Results

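The receptor for corticosterone (CORT), the chaperones that hold it ready to bind hormone and the proteins that set how much hormone reaches it were followed in rat liver during infusion of CORT. The set was chosen by name, with earlier results of these data known, and comprised 10 genes. These were the glucocorticoid receptor (GR) gene Nr3c1 and the chaperone and co-chaperone genes Hsp90aa1, Hsp90ab1, Ptges3, Stip1 and Fkbp4. The others were the genes Hsd11b1, Serpina6, Akr1d1 and Srd5a1 for CORT supply and clearance. Of these 10, 9 were found by gene name among the 26426 genes of the polymerase data and the 22929 genes of the RNA data, and Nr3c1 was matched by its locus. The animals were male Sprague Dawley rats whose adrenal glands had been removed, so that all groups, the vehicle groups included, lacked their own adrenal hormone. The infusions lasted 3 h and delivered CORT or vehicle (VEH), either in pulses of 20 min (PULS) or at a constant rate (CONS). Dexamethasone was given after surgery and CORT was given in the drinking water until the day before infusion, in every group. ChIP-Seq libraries were made for GR and for the elongating form of RNA polymerase II (pSer2 Pol2), with 2 libraries in each of 5 groups. These groups were PEAK_140 and NADIR_180 (pulsatile CORT at 140 min and 180 min), CONS_140 and CONS_180 (constant CORT at the same times) and VEH, whose 2 libraries were taken at 140 min and at 180 min. The vehicle of the ChIP-Seq groups was infused in pulses only, so CONS_140 and CONS_180 were compared with pulsatile vehicle. Each ChIP library pooled tissue from 6 rats. RNA-Seq libraries were made at 180 min, with 3 in each of 4 groups: PULS CORT, PULS VEH, CONS CORT and CONS VEH.

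Without hormone, GR is held in the cytoplasm by HSP90 together with the co-chaperone p23 and an immunophilin such as FKBP51 or FKBP52. The client is passed to HSP90 from HSP70 by HOP. In liver the hormone that reaches GR also depends on the circulating binding protein CBG, which hepatocytes secrete, on regeneration of CORT from its inactive 11-keto form by 11 beta-HSD1, and on reduction of the A ring, which starts its breakdown. These are long-known properties of the pathway and not results of these data.

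Total tags ranged from 2051977 to 6715803 in the GR libraries and from 4938473 to 9326927 in the pSer2 Pol2 libraries, and total reads from 3956379 to 7777219 in the RNA libraries. Of 8 hepatocyte markers, 8 were found. Their summed level, in counts scaled to library size (CPM), was 173321 to 186265 in PULS CORT against 166761 to 170922 in PULS VEH, which did not overlap, and 168578 to 178113 in CONS CORT against 138649 to 174606 in CONS VEH. The sums of the marker lists for macrophages, sinusoidal endothelium, cholangiocytes and lymphocytes overlapped between CORT and VEH in both patterns. Those of 5 stellate cell markers did not: they were 168 to 205 CPM in PULS CORT against 239 to 289 CPM in PULS VEH, and 168 to 205 CPM in CONS CORT against 215 to 246 CPM in CONS VEH. Alb, which is among the hepatocyte markers, did not itself differ in PULS (log2 difference 0.02, SE 0.16, edgeR adjusted p = 0.96). A shift of a sum is thus not a shift of each marker. The part of these shifts in the values given here was not tested. Krt19, a cholangiocyte marker, had no read in any library. Of 4 adrenal cortex markers in the table, Cyp21a1 had no read in any library and the sum stayed between 0.94 and 2.55 CPM. Because these are bulk libraries, fewer cells of a type and less RNA per cell cannot be told apart.

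No row of the data carries the name Nr3c1. The gene model AABR07031756.1 (ENSRNOG00000014096; chr18:31739647-31749647 of rn6 as the polymerase table gives it, minus strand) was taken as the Nr3c1 locus, because the GR region at its start is annotated by the authors as intron 1 of transcript NM_012576, which RefSeq assigns to Nr3c1. Ndfip1, Spry4, Arhgap26 and Fgf1 lie near both this model in the data and Nr3c1 in RefSeq, although in another order, and the start of the model is not the start of the RefSeq transcript. Another GR region, at chr18:32223082-32223609 and nearest to Arhgap26, carries the same intron 1 annotation, so this annotation is not particular to the model and the match is not certain. Values below for the Nr3c1 locus are those of this model. Hsp90aa1, the inducible form of HSP90, was listed with 0 reads in all 12 RNA libraries and 0 tags in all 10 pSer2 Pol2 libraries, so it has no comparison, and 9 of 10 genes could be tested in both assays.

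Promoter sequences from RefSeq (GRCr8, 250 bases before to 50 after the gene start) were matched for 6 of the 10 genes, namely Nr3c1, Hsp90ab1, Ptges3, Stip1, Fkbp4 and Srd5a1. Those of the receptor and of the 2 chaperone genes whose RNA moved most are shown, 5′ to 3′ on the strand of the gene, with any match to the letters GAANNTTC in capitals. These letters are the core of the heat shock element and are the same on both strands. Another Nr3c1 start was listed, whose window (chr18:31613390-31613689) holds no match and is not shown.
Nr3c1, chr18:31614170-31614469, minus strand: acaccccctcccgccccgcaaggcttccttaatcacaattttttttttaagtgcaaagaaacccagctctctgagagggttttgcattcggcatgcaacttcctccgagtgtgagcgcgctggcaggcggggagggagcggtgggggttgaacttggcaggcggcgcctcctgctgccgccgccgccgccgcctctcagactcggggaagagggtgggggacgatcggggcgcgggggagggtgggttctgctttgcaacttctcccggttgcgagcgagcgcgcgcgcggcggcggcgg
Hsp90ab1, chr9:22930173-22930472, plus strand: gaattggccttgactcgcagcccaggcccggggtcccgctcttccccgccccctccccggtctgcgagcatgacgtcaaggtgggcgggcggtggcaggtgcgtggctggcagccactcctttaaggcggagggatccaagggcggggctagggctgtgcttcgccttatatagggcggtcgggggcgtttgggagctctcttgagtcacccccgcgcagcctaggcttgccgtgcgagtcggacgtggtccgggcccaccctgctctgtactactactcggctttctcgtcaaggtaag
Fkbp4, chr4:163397869-163398168, minus strand: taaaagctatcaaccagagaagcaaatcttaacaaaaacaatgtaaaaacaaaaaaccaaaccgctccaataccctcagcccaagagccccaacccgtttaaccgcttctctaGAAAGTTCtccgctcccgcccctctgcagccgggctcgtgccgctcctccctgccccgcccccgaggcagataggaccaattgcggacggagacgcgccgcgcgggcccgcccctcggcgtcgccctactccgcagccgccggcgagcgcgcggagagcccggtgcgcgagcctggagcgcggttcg
The only match among the 6 genes was in Fkbp4, whose first base lies 137 b before the gene start, and 8.59% of all 33469 promoters in the same table hold a match. The core of the glucocorticoid response element, ACANNNTGT, which is also the same on both strands, occurred in none of the windows of the 6 genes and in 6.86% of all promoters. A match describes the letters and is not a measured site.

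Transcripts of the Nr3c1 locus were lower after 180 min of constant CORT and not detectably lower after pulses. In CONS CORT the 3 libraries held 43.1, 47.7 and 43.9 CPM, and in CONS VEH 73.9, 76.9 and 79.3 CPM. All CONS CORT libraries lay below all CONS VEH libraries, with means of 44.9 CPM ± 2.49 (SD, n = 3) and 76.7 CPM ± 2.69 (SD, n = 3). The log2 difference was -0.77 (SE 0.11, 1.71-fold, edgeR quasi-likelihood adjusted p = 0.00017). In PULS CORT the libraries held 59.5, 66.8 and 64.1 CPM, and in PULS VEH 78.4, 66.1 and 65.5 CPM. These groups overlapped, with a log2 difference of -0.14 (SE 0.11, edgeR adjusted p = 0.51). Calls required an adjusted p below 0.05 together with a difference above 1.5-fold, and by this rule the Nr3c1 locus was the 1 of 9 tested genes called in CONS, where 9.2% of all 14092 genes tested were called. In PULS 0 of 9 were called, against 4.23% of all genes, with 3 of 9 at an unadjusted p below 0.05 and 0 called by DESeq2. The difference between the CONS and the PULS response, tested as an interaction, was -0.63 (SE 0.15, edgeR adjusted p = 0.10) at the Nr3c1 locus, and this difference was called with DESeq2 (adjusted p = 0.015) and without CONS VEH replicate 1 (edgeR adjusted p = 0.047).

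The plot of CPM by library shows the groups of each gene.

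**Figure D1:**
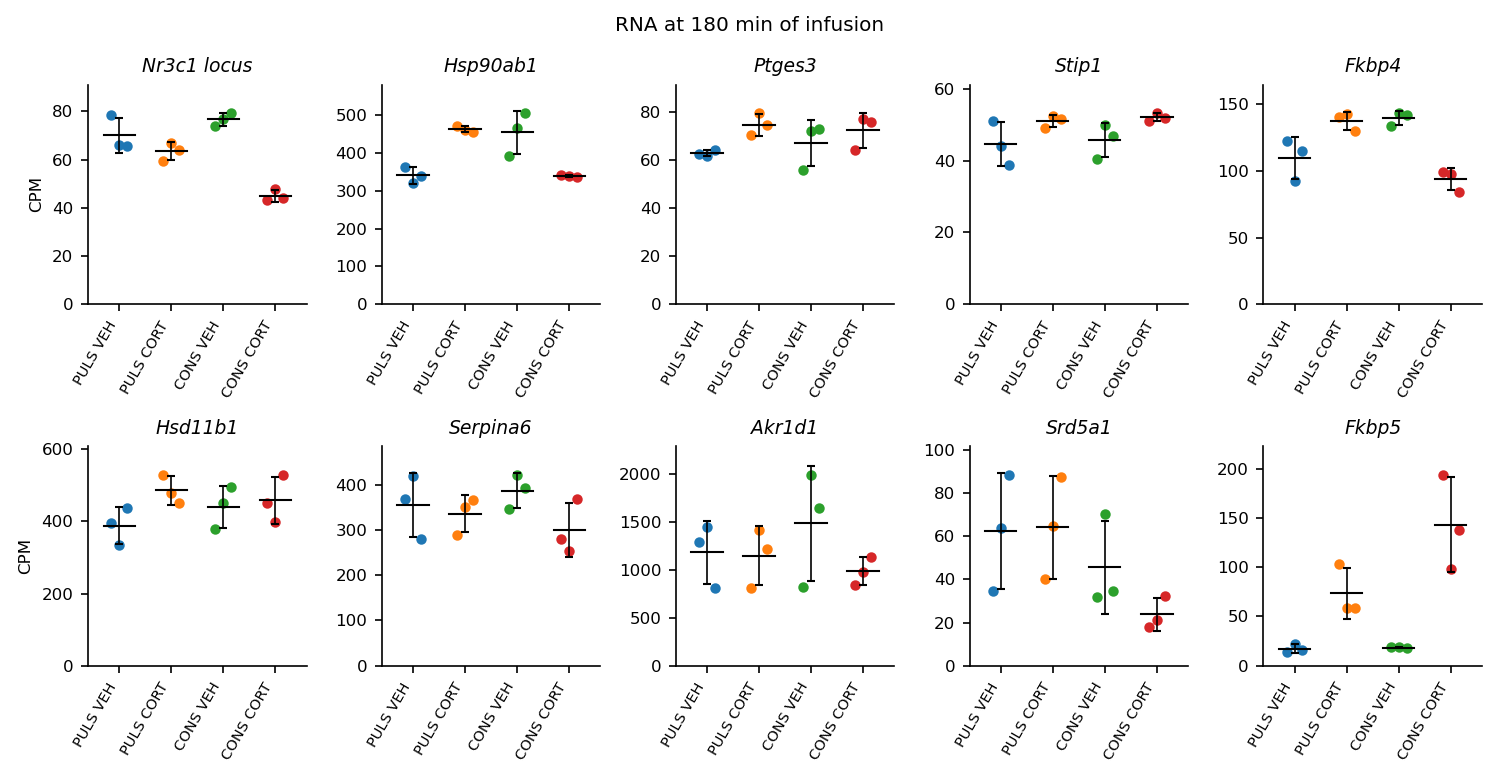
RNA levels at 180 min in CPM (vertical axis, from 0) for the 9 genes with reads and for Fkbp5, by group (horizontal axis). Points are libraries, horizontal lines are means and bars are SD of 3 libraries. The Nr3c1 locus is lowest in CONS CORT, at 43.1 to 47.7 CPM, and Fkbp5 is above its VEH libraries in both CORT groups.

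Elongating polymerase over the Nr3c1 locus was below VEH in every CORT library, but no comparison was called. The log2 values were 7.80 and 7.49 in VEH, 6.39 and 7.01 at PEAK_140, 6.76 and 6.75 at NADIR_180, 6.84 and 5.34 at CONS_140, and 7.40 and 6.84 at CONS_180. Each CORT library lay below both VEH libraries. The largest log2 difference from VEH was -1.56 at CONS_140 (SE 0.47, limma adjusted p = 0.32), where the 2 libraries were 1.5 apart. With each library centred on its median over the regions tested, this difference was called.

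GR occupancy near the Nr3c1 locus rose over VEH at both times of constant CORT and at PEAK_140. The region, at chr18:31751276-31751901 of rn6, lies 1.9 kb before the start of the model and was the only GR region within 50 kb of it. The authors called peaks there in PEAK_140 and CONS_180 only, so the region was admitted through groups where GR was high. Its tests against VEH and NADIR_180 are therefore a description. Its log2 values were -0.77 and -0.93 in VEH, 4.45 and 3.82 at PEAK_140, 3.32 and -0.55 at NADIR_180, 3.20 and 2.31 at CONS_140, and 3.94 and 2.28 at CONS_180. The VEH values and that of NADIR_180 replicate 2 were nearly the same at -36.6 kb of Hsd11b1 (-0.81, -0.95 and -0.60) and may mark a floor. The size of the differences from VEH and the small spread of VEH then depend on that floor. The PEAK_140, CONS_140 and CONS_180 libraries lay above both VEH libraries, whereas the NADIR_180 libraries were split, replicate 1 being near the CONS values and replicate 2 near VEH. The log2 difference from VEH was 4.99 (SE 1.18, limma adjusted p = 0.0043) at PEAK_140, 3.60 (SE 1.18, limma adjusted p = 0.024) at CONS_140, 3.96 (SE 1.18, limma adjusted p = 0.016) at CONS_180 and 2.24 (SE 1.18, limma adjusted p = 0.38) at NADIR_180. The call at CONS_140 was lost without CONS_140 replicate 1 and without either VEH library (limma adjusted p of 0.072 to 0.12), and that at CONS_180 without CONS_180 replicate 1 and without either VEH library (0.053 to 0.11). Without NADIR_180 replicate 2, the difference at NADIR_180 was 4.17 (limma adjusted p = 0.015). Just outside the 50 kb window, a region lay 52.9 kb before the start. Its log2 values were 1.79 and -0.81 in VEH, 3.23 and 1.14 at PEAK_140, and 2.68 and 2.40 at NADIR_180. They were 3.00 and -0.765 at CONS_140 and 3.59 and 2.00 at CONS_180, and no comparison was called there.

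Among the chaperone genes, Hsp90ab1 and Fkbp4 had opposite signs in the 2 patterns, with changes under 1.5-fold in each. Hsp90ab1, which encodes the constitutive form of HSP90, held 473, 461 and 457 CPM in PULS CORT against 364, 320 and 339 CPM in PULS VEH. It held 341, 340.4 and 337 CPM in CONS CORT against 392, 466 and 506 CPM in CONS VEH. Neither pair of groups overlapped, CORT being above VEH in PULS and below it in CONS. The log2 difference was 0.44 (SE 0.11, 1.36-fold, edgeR adjusted p = 0.031) in PULS and -0.42 (SE 0.11, 1.34-fold, edgeR adjusted p = 0.021) in CONS, both past the p threshold and under the fold threshold. The 2 VEH groups did not overlap either: CONS VEH was above PULS VEH by 0.42 (SE 0.11, edgeR adjusted p = 0.35, unadjusted p = 0.0020).

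Fkbp4 encodes FKBP52, the immunophilin co-chaperone that favours hormone binding by GR. It held 141, 142 and 130.0 CPM in PULS CORT against 122, 92.3 and 115 CPM in PULS VEH, and 98.9, 98.0 and 84.0 CPM in CONS CORT against 133, 143 and 142 CPM in CONS VEH. In both patterns the CORT and VEH libraries did not overlap, CORT being higher in PULS and lower in CONS. The log2 difference was 0.33 (SE 0.12, edgeR adjusted p = 0.13) in PULS and -0.57 (SE 0.12, 1.49-fold, edgeR adjusted p = 0.0041) in CONS, just under the fold threshold. Without CONS CORT replicate 1, CONS CORT replicate 2 or CONS VEH replicate 1 it passed both (log2 difference of -0.61 each, edgeR adjusted p of 0.0063 to 0.012). CONS VEH was above PULS VEH by 0.35 (SE 0.12, edgeR adjusted p = 0.41).

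The interaction, CONS response minus PULS response, was -0.90 (SE 0.17, edgeR adjusted p = 0.058) for Fkbp4 and -0.86 (SE 0.16, edgeR adjusted p = 0.058) for Hsp90ab1. Of the 9 genes, 0 were called for this interaction by edgeR, against 0.0284% of all genes, and 3 had an unadjusted p below 0.05. With DESeq2, 3 were called, namely Fkbp4, Hsp90ab1 and the Nr3c1 locus. The shares of all genes at that unadjusted p or called by DESeq2 were not computed, so these counts of 3 have no background. Both chaperone genes were also called without CONS VEH replicate 1 (edgeR adjusted p = 0.022 for Fkbp4 and 0.014 for Hsp90ab1), and Fkbp4 without PULS VEH replicate 1 (edgeR adjusted p = 0.049). Between the 2 VEH groups 0 of 9 were called by edgeR and 0 by DESeq2, against 0% of all genes, and 2 had an unadjusted p below 0.05, the same Fkbp4 and Hsp90ab1. By the numbers in their titles, PULS VEH and CONS VEH replicate 1 lie apart from all other RNA libraries. The PULS response, which enters the interaction, cannot be told apart from any effect of this order.

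Ptges3, which encodes the co-chaperone p23, held 62.7 CPM ± 1.29 (SD, n = 3) in PULS VEH, 74.7 CPM ± 4.57 in PULS CORT, 66.8 CPM ± 9.53 in CONS VEH and 72.2 CPM ± 7.19 in CONS CORT. Its log2 difference was 0.25 (SE 0.12, edgeR adjusted p = 0.27) in PULS and 0.12 (SE 0.12, edgeR adjusted p = 0.60) in CONS. Stip1, which encodes HOP, held 44.6 CPM ± 6.08, 51.0 CPM ± 1.72, 45.7 CPM ± 4.80 and 52.0 CPM ± 1.12 in the same order (SD, n = 3). Its log2 difference was 0.19 (SE 0.12, edgeR adjusted p = 0.41) in PULS and 0.19 (SE 0.12, edgeR adjusted p = 0.34) in CONS. Both genes thus differed from VEH by less than the threshold in either pattern.

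At the level of elongating polymerase, none of Hsp90ab1, Ptges3, Stip1 and Fkbp4 was called in any of the 9 comparisons. The widest span was that of Fkbp4, with log2 values of 7.33 and 6.71 in VEH, 5.86 and 6.51 at PEAK_140, 7.52 and 7.12 at NADIR_180, 7.86 and 6.91 at CONS_140, and 6.95 and 6.58 at CONS_180. PEAK_140 lay lowest, and its log2 difference from CONS_140 was -1.20 (SE 0.42, limma adjusted p = 0.35, unadjusted p = 0.015). Without CONS_140 replicate 2, this difference was -1.68 and was called (limma adjusted p = 0.031). Ptges3 had 6.68 and 5.93 in VEH and 7.35, 6.80, 7.21 and 6.93 in the CONS libraries, which all lay above VEH, and the log2 difference was 0.77 at both times (SE 0.38, limma adjusted p = 0.54 at 140 min and 1.00 at 180 min). Hsp90ab1 and Stip1 differed from VEH by at most 0.53 on the log2 scale in any CORT group. The lowest Stip1 values, 3.75 to 3.76, recur in VEH, PEAK_140 and CONS_180 and may mark a floor. The nearest GR region lay 97.8 kb from the start of Fkbp4, 132.6 kb from Hsp90ab1, 135.2 kb from Ptges3, 180.6 kb from Stip1 and 239.6 kb from Hsp90aa1.

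Fkbp5 encodes FKBP51, the immunophilin that competes with FKBP52 for HSP90 and is a textbook GR target, and it is given for scale. It held 103, 58.4 and 58.9 CPM in PULS CORT against 13.9, 22.1 and 16.0 CPM in PULS VEH, and 194, 97.7 and 138 CPM in CONS CORT against 19.2, 18.5 and 17.7 CPM in CONS VEH. It rose 4.25-fold in PULS (log2 difference 2.09, SE 0.26, edgeR adjusted p = 0.00022) and 7.71-fold in CONS (log2 difference 2.95, SE 0.26, edgeR adjusted p = 1.7e-06). Elongating polymerase over Fkbp5 was higher than VEH by 3.82 (SE 0.49, limma adjusted p = 0.0051) at CONS_140 and by 2.94 (SE 0.49, limma adjusted p = 0.044) at CONS_180, and by 1.83 (SE 0.49, limma adjusted p = 0.17) at PEAK_140.

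Hsd11b1 was the gene with the most GR regions nearby. It encodes 11 beta-HSD1, the reductase that regenerates CORT inside hepatocytes. Within 50 kb of a member start there were 5 GR regions of 3981 in all, and 4 of them lay at Hsd11b1: an intergenic one 36.6 kb before the start (chr13:112008858-112009483), one 4.6 kb before it (chr13:111976844-111977469), and 2 in intron 4 of the gene, 9.4 kb (chr13:111962888-111963543) and 13.1 kb (chr13:111959130-111959797) after it, in rn6. Distances refer to the upstream of 2 annotated starts. The intronic pair also lies 14.5 kb and 10.7 kb before the other start, and the region at -36.6 kb lies closer to G0s2, 4.1 kb from its start.

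The intronic region at 9.4 kb had log2 values of -0.67 and 0.45 in VEH, 5.39 and 5.17 at PEAK_140, 2.33 and -0.45 at NADIR_180, 3.28 and 3.16 at CONS_140, and 4.22 and 4.33 at CONS_180. The region at 13.1 kb had -0.73 and 0.44 in VEH, 4.49 and 3.07 at PEAK_140, 0.72 and -0.52 at NADIR_180, 3.94 and 3.48 at CONS_140, and 3.78 and 3.89 at CONS_180. In both, every PEAK_140 and CONS library lay above every VEH and NADIR_180 library. The region 4.6 kb before the start had -0.77 and -0.91 in VEH, 2.80 and 3.25 at PEAK_140, 0.66 and -0.57 at NADIR_180, 2.39 and 1.91 at CONS_140, and 3.15 and 3.07 at CONS_180. The same order held there. The region at -36.6 kb had -0.81 and -0.95 in VEH, 2.82 and 2.24 at PEAK_140, 1.34 and -0.60 at NADIR_180, 3.31 and 1.14 at CONS_140, and 3.76 and 2.77 at CONS_180, so that NADIR_180 replicate 1 and CONS_140 replicate 2 overlapped. NADIR_180 replicate 1 was above replicate 2 at all 5 regions. VEH replicate 1 and NADIR_180 replicate 2 were negative at each of them, near their values at the Nr3c1 locus (-0.77 and -0.55). Such values may mark a floor, and the size of differences from VEH or NADIR_180 then depends on it. The 2 NADIR_180 libraries held 3026250 and 2556380 tags.

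**Figure D2:**
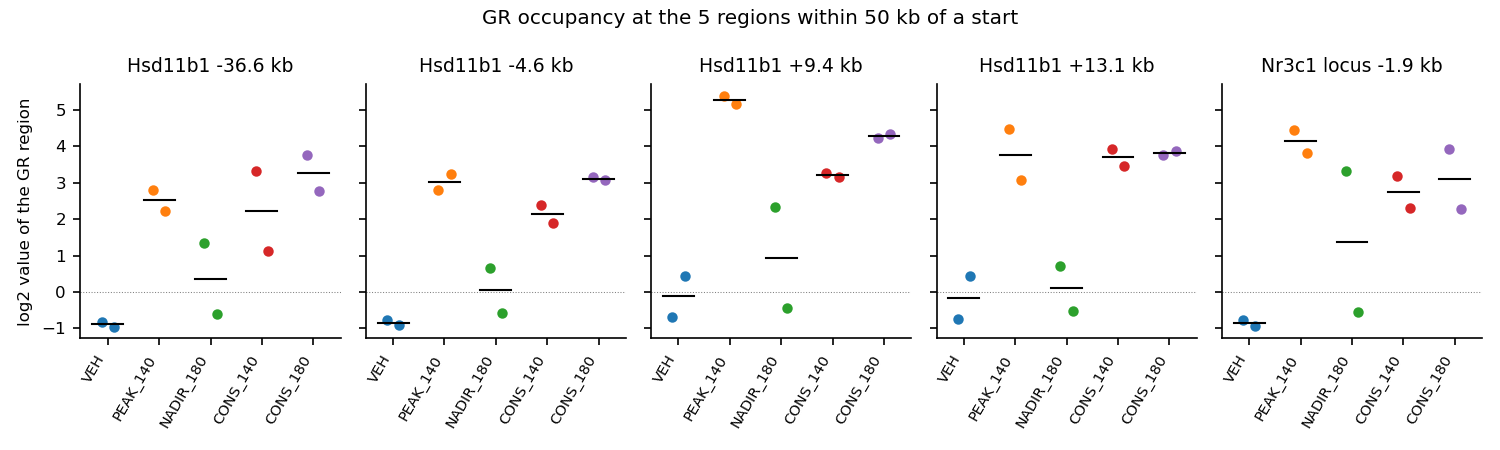
GR log2 values (vertical axis) in each of the 10 GR libraries, by group (horizontal axis), at the 4 regions of Hsd11b1 and the region at the Nr3c1 locus, with the distance from the start above each panel. Points are libraries and lines are means of 2. The PEAK_140, CONS_140 and CONS_180 libraries are above both VEH libraries in all 5 panels, and the NADIR_180 libraries are split.

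All 5 regions rose over VEH in the PEAK_140, CONS_140 and CONS_180 groups, in which 80.5%, 65.1% and 68.2% of all regions were called, and 0 of 5 were called at NADIR_180, where 7.79% of all regions were called and 0 of the 5 had an unadjusted p below 0.05 (limma). The largest difference was 5.39 (SE 0.89, limma adjusted p = 0.00066) at the 9.4 kb region at PEAK_140. Given the background, these counts do not set the 5 regions apart from other GR regions. The region at -36.6 kb overlapped a peak that the authors called in CONS_180 only, and the others overlapped peaks of PEAK_140 and CONS_180. No region of the 5 overlapped a VEH or NADIR_180 peak. They were thus admitted through groups where GR was high, and their tests against VEH and NADIR_180 are a description. Over all 3981 regions the median difference from VEH was 4.17 (PEAK_140), 3.38 (CONS_140) and 3.46 (CONS_180) on the log2 scale, so that with each library centred on its median 0 of 5 were called over VEH in any of these groups, and the 15 differences lay between -1.21 and 0.77. The call of the -36.6 kb region was lost at PEAK_140 without PEAK_140 replicate 1 (limma adjusted p = 0.055) and at CONS_140 without CONS_140 replicate 1 or either VEH library (0.063 to 0.11), and that of the 9.4 kb region at CONS_140 without VEH replicate 1 (0.059). Without NADIR_180 replicate 2, the 9.4 kb region was called at NADIR_180 (log2 difference 2.44, limma adjusted p = 0.025).

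From PEAK_140 to NADIR_180, GR fell at 3 of the 5 regions, those at 9.4 kb, 13.1 kb and -4.6 kb of Hsd11b1, against 69.3% of all regions. The fall was 4.34 (SE 0.89, limma adjusted p = 0.0033), 3.67 (SE 0.77, limma adjusted p = 0.0037) and 2.98 (SE 0.68, limma adjusted p = 0.0053) on the log2 scale. The regions at -36.6 kb of Hsd11b1 and at the Nr3c1 locus missed the threshold (limma adjusted p = 0.069 and 0.062), and both passed without NADIR_180 replicate 1 (0.037 and 0.0037). From CONS_140 to CONS_180, 0 of 5 were called by limma, 0 had an unadjusted p below 0.05, and 0% of all regions were called. CONS_180 was above NADIR_180 at the 4 Hsd11b1 regions, by 2.90 to 3.73 on the log2 scale, against 49.6% of all regions. That call was lost without either CONS_180 library at the regions at 9.4 kb and -36.6 kb (limma adjusted p of 0.073 to 0.16) and without NADIR_180 replicate 2 at the latter (0.20), and without NADIR_180 replicate 1 the region of the Nr3c1 locus was called too (0.013). PEAK_140 and CONS_140 did not differ by call at any of the 5 regions (0 of 5 by limma, 1 with an unadjusted p below 0.05), and 0.0502% of all regions did. The time course differed between the patterns, by the interaction, at the same 3 Hsd11b1 regions that fell from PEAK_140 to NADIR_180, against 44% of all regions.

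**Figure D3:**
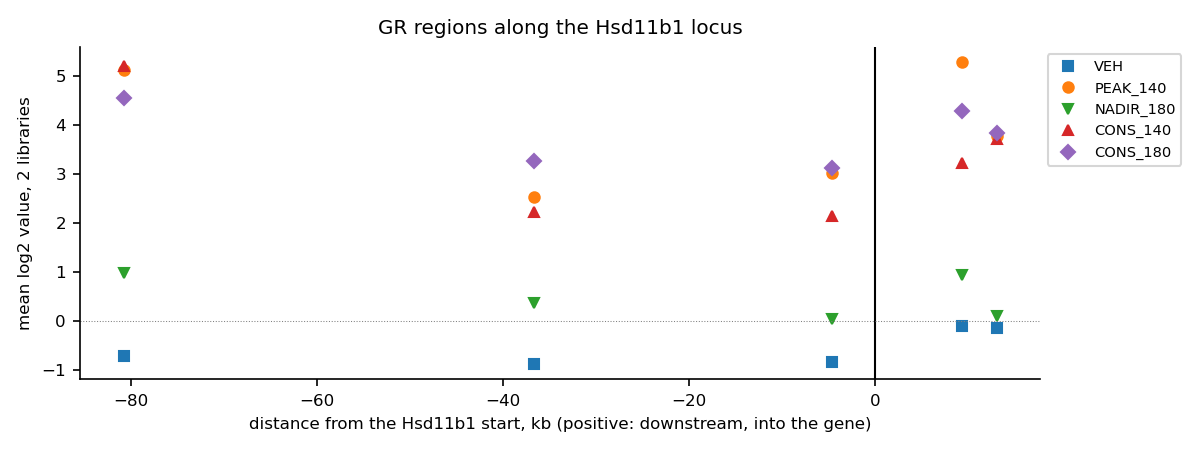
Mean GR log2 value of 2 libraries per group (vertical axis) at the 5 GR regions within 100 kb of the Hsd11b1 start, against the distance of the region's centre from that start in kb (horizontal axis). Symbols are groups. VEH means are below 0 at every region shown, and NADIR_180 means are below those of the other CORT groups at each.

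Elongating polymerase over Hsd11b1 was higher than VEH at PEAK_140 and at both CONS times and near VEH at NADIR_180, but no difference was called. The log2 values were 7.81 and 6.95 in VEH, 8.61 and 8.95 at PEAK_140, 7.73 and 7.17 at NADIR_180, 8.74 and 8.31 at CONS_140, and 9.21 and 8.93 at CONS_180. All PEAK_140 and CONS libraries lay above all VEH and NADIR_180 libraries. The log2 difference from VEH was 1.40 (SE 0.38, 2.63-fold, limma adjusted p = 0.18) at PEAK_140, 0.06 (SE 0.38, limma adjusted p = 1.00) at NADIR_180, 1.14 (SE 0.38, limma adjusted p = 0.42) at CONS_140 and 1.69 (SE 0.38, 3.22-fold, limma adjusted p = 0.18) at CONS_180. The last was called when only regions above the median of mean values were tested (limma adjusted p = 0.043). With each library centred on its median, Hsd11b1 was called over VEH at PEAK_140 and CONS_180 (limma adjusted p = 0.021 each), over NADIR_180 at PEAK_140 and CONS_180 (0.039 and 0.036) and for the difference of time courses (0.044). Without VEH replicate 1, the stretch that begins at the other start was called at PEAK_140, CONS_140 and CONS_180 (log2 difference of 2.97, 2.56 and 3.15, limma adjusted p = 0.025, 0.032 and 0.029), while the stretch whose values are given was not. RNA of Hsd11b1 was 529, 478 and 450.0 CPM in PULS CORT against 394, 333 and 436 CPM in PULS VEH, with a log2 difference of 0.32 (SE 0.14, edgeR adjusted p = 0.21). In CONS CORT it was 451, 397.5 and 527.5 CPM against 378, 449.9 and 494 CPM in CONS VEH, with a log2 difference of 0.06 (SE 0.14, edgeR adjusted p = 0.86). The PULS groups did not overlap and the CONS groups did.

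Serpina6, which encodes the plasma carrier CBG, had less elongating polymerase at PEAK_140 and CONS_180 than in VEH. Its log2 values were 8.70 and 8.26 in VEH, 4.9 and 5.98 at PEAK_140, 7.50 and 7.37 at NADIR_180, 7.03 and 5.75 at CONS_140, and 5.48 and 4.30 at CONS_180. Every CORT library lay below both VEH libraries, and the 2 NADIR_180 libraries were the highest of the CORT libraries. The log2 difference from VEH was -3.04 (SE 0.53, 8.24-fold, limma adjusted p = 0.021) at PEAK_140, -1.04 (SE 0.53, limma adjusted p = 1.00) at NADIR_180, -2.09 (SE 0.53, limma adjusted p = 0.16) at CONS_140 and -3.59 (SE 0.53, 12-fold, limma adjusted p = 0.024) at CONS_180. The differences at PEAK_140 and CONS_180 were called. Each of these calls was lost when any 1 of its 4 libraries was left out (limma adjusted p of 0.064 to 0.30 at PEAK_140 and 0.11 to 0.27 at CONS_180), with log2 differences of -2.50 to -3.58 and of -3.0 to -4.18. The difference of time courses between the patterns was -3.49 (SE 0.75, limma adjusted p = 0.18), and it was called without CONS_140 replicate 2 (-4.13, limma adjusted p = 0.017). Centring each library on its median also gave calls for this difference (limma adjusted p = 0.044), at CONS_140 over VEH (0.024) and for CONS_180 against NADIR_180 (0.035).

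RNA of Serpina6 was not called at 180 min in either pattern. It was 290, 351 and 367 CPM in PULS CORT against 368, 420 and 279.6 CPM in PULS VEH, and 281, 253 and 368 CPM in CONS CORT against 346, 422 and 392 CPM in CONS VEH. The groups overlapped in both patterns. The log2 difference was -0.08 (SE 0.16, edgeR adjusted p = 0.84) in PULS and -0.36 (SE 0.16, edgeR adjusted p = 0.18) in CONS. The nearest GR region lay 74.7 kb from the Serpina6 start and is annotated to Serpina1.

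**Figure D4:**
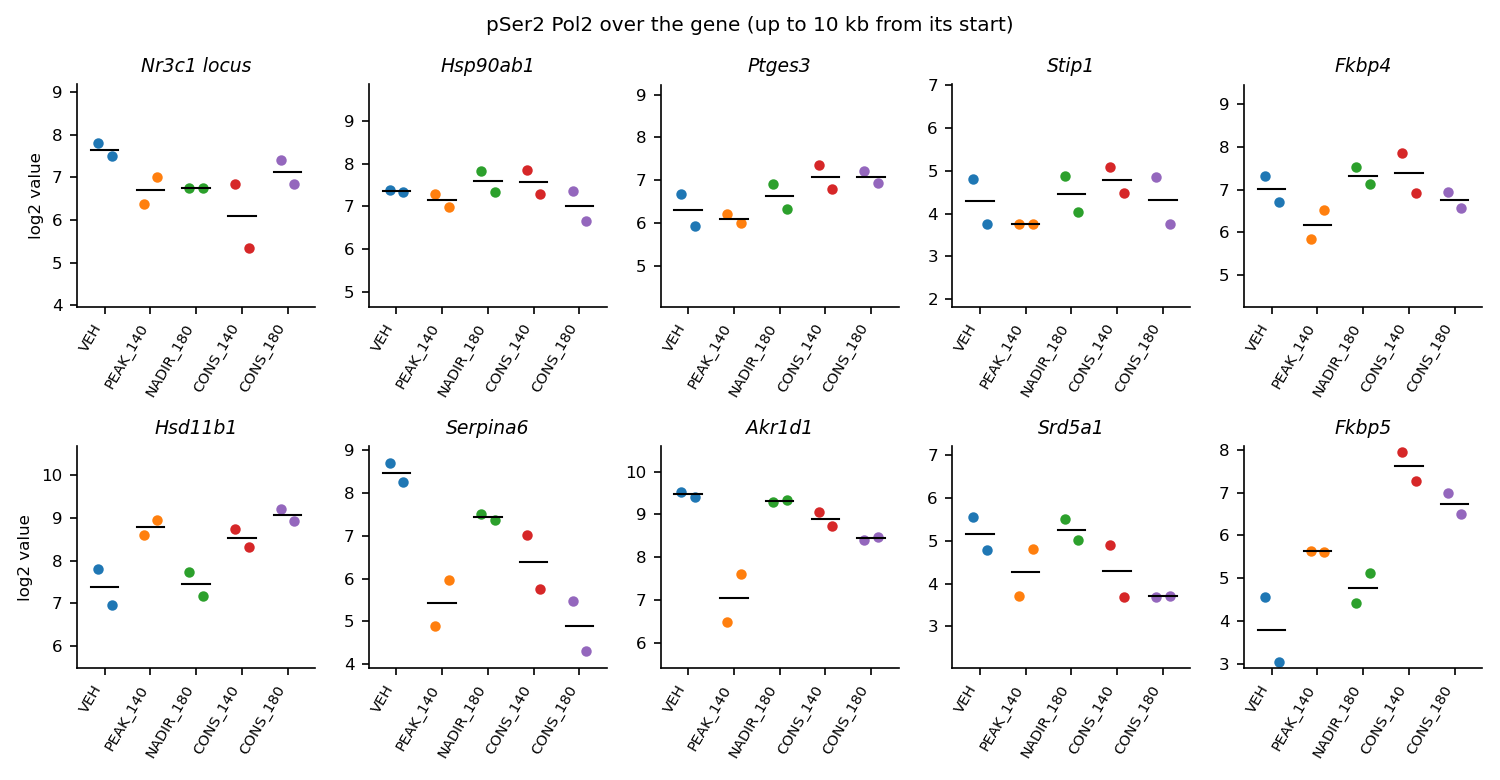
Log2 values of pSer2 Pol2 (vertical axis, every panel spanning the same range) in each of 10 libraries, by group (horizontal axis), for the 9 genes with tags and Fkbp5. Points are libraries and lines are means of 2. Serpina6 and Akr1d1 are lowest at CONS_180 and PEAK_140, respectively, and no chaperone gene was called against VEH in any CORT group.

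Akr1d1, which encodes the 5 beta-reductase that acts on CORT and on bile acid precursors, lost elongating polymerase at the pulse peak. The log2 values were 9.53 and 9.41 in VEH, 6.48 and 7.60 at PEAK_140, 9.28 and 9.33 at NADIR_180, 9.05 and 8.72 at CONS_140, and 8.41 and 8.48 at CONS_180. Both PEAK_140 libraries lay below all other libraries, and the NADIR_180 libraries lay just below VEH. The log2 difference from VEH was -2.43 (SE 0.37, 5.38-fold, limma adjusted p = 0.010) at PEAK_140, and that between PEAK_140 and NADIR_180 was -2.26 (SE 0.37, 4.80-fold, limma adjusted p = 0.023). Both were called. Against VEH the difference was -0.16 (SE 0.37) at NADIR_180, -0.58 (SE 0.37) at CONS_140 and -1.02 (SE 0.37, limma adjusted p = 0.98) at CONS_180. The call against VEH was lost without PEAK_140 replicate 1 or either VEH library (limma adjusted p of 0.082 to 0.14), and that against NADIR_180 without PEAK_140 replicate 1 or either NADIR_180 library (0.12 to 0.27) and with the replicate number as a block (0.053). Between PEAK_140 and CONS_140 the difference was -1.84 (SE 0.37, limma adjusted p = 0.095), and the difference of time courses was -2.7 (SE 0.53, limma adjusted p = 0.12). Without CONS_140 replicate 2, both were called (0.018 and 0.016), as both were when only regions above the median of mean values were tested (0.018 and 0.016), and the latter was called after centring (0.046).

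RNA of Akr1d1 spread widely within groups. It was 810.3, 1414 and 1222 CPM in PULS CORT against 1296, 1443 and 815 CPM in PULS VEH, and 843, 979 and 1136 CPM in CONS CORT against 822, 1995 and 1646 CPM in CONS VEH. The groups overlapped in both patterns, with log2 differences of -0.04 (SE 0.28, edgeR adjusted p = 0.95) in PULS and -0.59 (SE 0.28, edgeR adjusted p = 0.19) in CONS. Without CONS VEH replicate 1 the latter was -0.88 and was called (edgeR adjusted p = 0.023), and without CONS VEH replicate 2 it was -0.32 (edgeR adjusted p = 0.56). The nearest GR region lay 81.6 kb from the Akr1d1 start.

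Srd5a1 encodes the hepatic 5 alpha-reductase. Its polymerase values were 5.56 and 4.79 in VEH, 3.71 and 4.81 at PEAK_140, 5.50 and 5.03 at NADIR_180, 4.91 and 3.69 at CONS_140, and 3.69 and 3.72 at CONS_180. The CONS_180 libraries lay below VEH, with a log2 difference of -1.46 (SE 0.48, limma adjusted p = 0.73, unadjusted p = 0.011), and no comparison was called. Values of 3.69 to 3.72 recur across PEAK_140, CONS_140 and CONS_180, near the lowest values of Stip1, and may mark a floor. The size and SE of this difference then depend on that floor. Its RNA was 18.1, 21.0 and 32.2 CPM in CONS CORT against 31.8, 70.3 and 34.7 CPM in CONS VEH, and 40.0, 64.8 and 87.5 CPM in PULS CORT against 34.6, 64.0 and 88.6 CPM in PULS VEH. The log2 difference was -0.92 (SE 0.36, 1.89-fold, edgeR adjusted p = 0.12) in CONS and 0.04 (SE 0.34, edgeR adjusted p = 0.97) in PULS, with 1 CONS CORT library inside the range of CONS VEH. The CONS difference was called when genes were kept from 1 read on (edgeR adjusted p = 0.022), and without CONS VEH replicate 2 it was -0.48 (edgeR adjusted p = 0.46). The nearest GR region lay 97.3 kb from the Srd5a1 start.

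Counted over the 9 genes with tags, elongating polymerase was called at 2 genes at PEAK_140, both lowered, against 1.01% of the 16568 genes tested, and at 1, lowered, at CONS_180, against 0.235%. It was called at 0 of 9 at CONS_140 (3 with an unadjusted p below 0.05, limma), against 0.821%, and at 0 of 9 at NADIR_180 (0 with an unadjusted p below 0.05, limma), against 0.00604%. Between CORT groups it was called at 1 of 9 for PEAK_140 against NADIR_180 (0.507% of all genes), 0 of 9 for CONS_140 against CONS_180 (0%), 0 of 9 for PEAK_140 against CONS_140 (0.0302%), 0 of 9 for CONS_180 against NADIR_180 (0.175%) and 0 of 9 for the difference of time courses (0.0664%). The unadjusted p was below 0.05, with limma, at 1, 3, 4 and 5 of the 9 genes in the comparisons with 0 calls, in the same order. The share of all genes at that unadjusted p was not computed, so these counts do not set the 9 genes apart. The genes were chosen with earlier results of these data known, so the counts of calls are a description too. For the difference of time courses, the median over all regions was itself -0.30. The comparisons against VEH share the same 2 VEH libraries. By the numbers in their titles, these lie near the CONS libraries and PEAK_140 replicate 2, apart from the other pulsatile libraries. Any effect of this order was not tested.

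**Figure D5:**
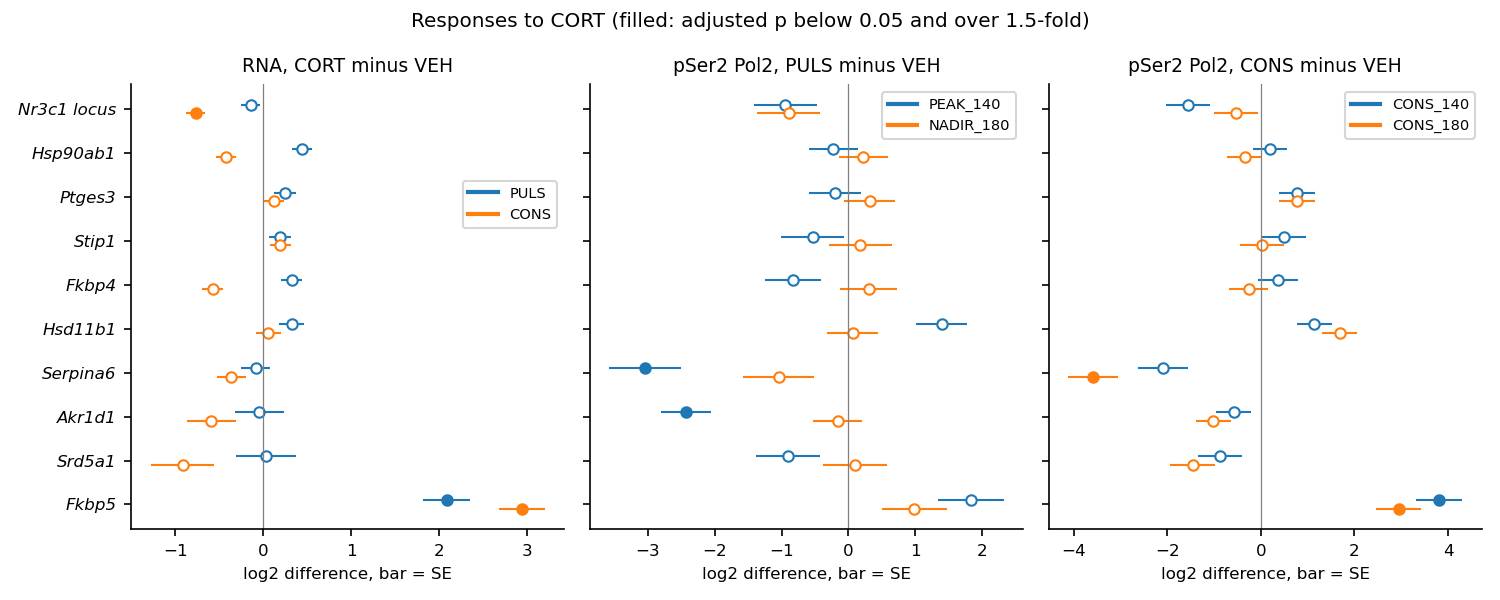
Log2 differences with SE bars (horizontal axis) of the 9 genes and Fkbp5 (vertical axis), for RNA (CORT minus VEH in each pattern) and for pSer2 Pol2 (each CORT group minus VEH). Filled points passed an adjusted p of 0.05 and 1.5-fold. Among the 9 genes only the Nr3c1 locus in RNA, and Serpina6 and Akr1d1 in pSer2 Pol2, have filled points.

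The other genes of the pathway were taken from lists, whose members were counted in the RNA data, where 4.23% of all genes tested were called in PULS and 9.2% in CONS. Of 28 genes of the HSP90 and HSP70 machinery, 1 rose and 0 fell in PULS, with a median log2 difference of 0.18 against -0.01 over all genes, and 1 rose and 1 fell in CONS, with a median of 0.14 against -0.01. The shares called, 3.57% and 7.14%, were below those of all genes. The gene that rose in both was Fkbp5, and the gene that fell in CONS was Fkbp8, a membrane-anchored immunophilin, by 0.61 on the log2 scale (SE 0.11, edgeR adjusted p = 0.0011). Of 9 heat shock inducible genes tested, 0 were called in PULS by edgeR (2 with an unadjusted p below 0.05) and 1 fell in CONS, Hspa4l of the HSP110 family, with 3, 21 and 17 reads in CONS CORT against 40, 18 and 40 in CONS VEH (log2 difference -1.22, SE 0.37, edgeR adjusted p = 0.040). The share of 11.1% in CONS is near the 9.2% of all genes. The medians of this list were 0.24 in PULS and 0.23 in CONS.

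Of 17 genes of corticosteroid metabolism and transport tested, 3 rose and 1 fell in PULS and 3 rose and 0 fell in CONS, with median log2 differences of 0.47 and 0.27. These were 23.5% of the list in PULS and 17.6% in CONS, against 4.23% and 9.2% of all genes. Por, the reductase that supplies electrons to microsomal P450 enzymes, rose in both, 3.21-fold in PULS and 6.55-fold in CONS (edgeR adjusted p = 2e-05 and 4.6e-08). H6pd, which makes the NADPH used by 11 beta-HSD1, rose 2.03-fold in CONS (SE of the log2 difference 0.16, edgeR adjusted p = 0.00047), with 628, 662 and 667 reads against 505, 212 and 321. Cyp3a62 rose 2.36-fold in CONS (edgeR adjusted p = 0.0018), and Cyp3a9 and Akr1c14 rose 2.53-fold and 1.55-fold in PULS (0.012 and 0.0028). Akr1c14 also rose 1.43-fold in CONS (0.0042), under the fold threshold. In PULS, H6pd and Cyp3a62 rose 1.49-fold and 1.53-fold without being called (0.055 and 0.17). Cyp3a9 rose 1.07-fold in CONS (0.73), and it held 113, 105 and 153 reads in PULS VEH against 299, 349 and 438 in CONS VEH. A call in 1 pattern only does not show a difference between patterns. Hsd17b2, which oxidises sex steroids, fell by 1.53 on the log2 scale in PULS (SE 0.37, edgeR adjusted p = 0.023).

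Of 18 GR coregulators and receptor relatives tested, 0 rose and 2 fell in each pattern, with medians of -0.04 in PULS and 0.04 in CONS. That is 11.1% of the list in each, against 4.23% of all genes in PULS and 9.2% in CONS. Among them was Nrip1, a corepressor of nuclear receptors, which fell by 0.84 in PULS and by 0.77 in CONS on the log2 scale (edgeR adjusted p = 0.0039 and 0.0023). Of 10 textbook glucocorticoid response genes, 7 rose in PULS, and 9 rose and 1, Sgk1, fell in CONS, against the same shares of all genes. The largest rise was that of Zbtb16 in CONS, with 3204, 4181 and 3015 reads against 662, 159 and 253 (10.9-fold, edgeR adjusted p = 5.1e-06). Per1, Tsc22d3 and Tat rose 6.69-fold, 5.67-fold and 2.66-fold in PULS and 8.72-fold, 7.99-fold and 3.54-fold in CONS. The lists were chosen with earlier results of these data known, so their counts are a description.

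Across the 12 RNA libraries, the genes whose log2 CPM was most like that of the Nr3c1 locus, among those with a mean of at least 10 CPM, were Baat (Pearson r = 0.96), Slc34a2 (0.95), Cgn (0.95), Akr1c13 (0.95) and Npc1 (0.94). Among the other members the values were 0.73 for Fkbp4, 0.58 for Serpina6, 0.52 for Hsp90ab1, 0.52 for Srd5a1, 0.49 for Akr1d1, -0.25 for Hsd11b1, -0.27 for Ptges3 and -0.39 for Stip1. The libraries fall into 4 groups, and the differences between groups enter these values, which are a description.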

How the data were processed

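Liver RNA, GR occupancy and pSer2 Pol2 occupancy were measured in adrenalectomised rats. The authors aligned ChIP reads to rn6, called peaks over input with HOMER 4.9.1, merged them into 3981 GR regions and deposited 1 log2 value per region and library. These log2 values had input subtracted and were used as deposited. The pSer2 Pol2 values cover coding regions, which the authors limited to 10 kb from the start. The authors deposited RNA counts per Ensembl gene (STAR and featureCounts 1.6.2 are named in the submitters' processing notes). Log2 fold changes and p-values of the authors' own comparisons were not used.

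In R 4.3.3, limma 3.58.1 was used for the ChIP values (all 10 libraries of an assay, variance trend), and counts with edgeR 4.0.16 (TMM, quasi-likelihood, all 12 libraries, 14092 genes with more than 10 reads in total). P-values were adjusted by Benjamini-Hochberg over all features tested, and a call needed an adjusted p below 0.05 and more than 1.5-fold. CPM used edgeR's effective library sizes for single genes and total reads for marker sums. A gene was called for pSer2 Pol2 if any of its regions passed, and its values are those of the region with the highest mean. The 23 member regions, 21 of them with tags, overlap in part. DESeq2 1.42.0 was an alternative. Shares of all features were computed for the main fits, and not for unadjusted p-values or DESeq2. The fits were also run on simulated data, and the outcome is not given here and is not used as support. Figures used matplotlib.

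The genes, lists and motifs were chosen with earlier results of these data known. Named genes were the 10 members, each GR region within 50 kb of a member start, the list genes called in RNA (up to 6 per list, by fold), Fkbp5 and the 5 genes most like the Nr3c1 locus. ChIP libraries pool rats, and nothing says that RNA libraries came from separate animals, so p-values measure the spread between these libraries. The titles give each RNA library a number whose meaning is not stated. The numbers of the PULS VEH libraries and of CONS VEH replicate 1 lie apart from those of all other RNA libraries. The PULS response and any effect of this order cannot be told apart, and such an effect was not tested. VEH ChIP libraries carry no replicate number. By the library numbers in their titles, the GR libraries of pulsatile CORT form a run apart from VEH and CONS. The same holds for pSer2 Pol2, except that PEAK_140 replicate 2 is numbered next to VEH. What the numbers stand for is not stated. An effect of this order cannot be told apart from that of pulsatile CORT and was not tested. Same-numbered CORT libraries of pSer2 Pol2 deviated together (r of 0.157 to 0.477 over all pairs of groups, each group having 2 libraries). Those of GR (-0.0081 to 0.078) and same-numbered RNA libraries (-0.17 to 0.20) did not. With 2 libraries the deviations of a ChIP group mirror each other, so mainly their direction bears on pairing. The labels name no pairing, and the main fits do not use it. Depth limits the precision of low values, and it covers counting error only. The values of 1 list gene are not reported here.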

Additional observations from a re-analysis of the deposited data

Results flagged for a closer look

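The time course of GR differed between the infusion patterns at 3 regions of Hsd11b1, by the test of that difference itself (limma, PEAK_140 minus NADIR_180 against CONS_140 minus CONS_180). The difference was 5.39 on the log2 scale (SE 1.25, adjusted p = 0.013) at the intronic region 9.4 kb after the start, 3.94 (SE 0.96, adjusted p = 0.015) at the region 4.6 kb before it and 3.80 (SE 1.09, adjusted p = 0.025) at the intronic region at 13.1 kb. Over all 3981 regions the median difference was 3.11 and 44% were called, so 3 of 5 is close to the background. The authors called peaks at these 3 regions in PEAK_140 and CONS_180 only, and both groups enter this difference with a plus sign. The test is therefore a description and not independent of how the regions were admitted. In each of the 3, both PEAK_140 libraries lay above both NADIR_180 libraries. Without PEAK_140 replicate 1 the call remained only at the region 4.6 kb before the start, with adjusted p of 0.052 at 9.4 kb and 0.089 at 13.1 kb, and the 13.1 kb region also missed the threshold without CONS_140 replicate 2, without either CONS_180 library and without NADIR_180 replicate 2 (adjusted p of 0.053 to 0.068). Without NADIR_180 replicate 1, all 5 regions were called, and without CONS_140 replicate 1 the region at -36.6 kb was called too (adjusted p = 0.028). After centring by library medians, the 3 differences were 2.01, 0.55 and 0.41 and none was called.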

How the results depend on the processing

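Of 242 counts of called genes or regions under other settings, 179 stayed within 1.5 times the value given. For RNA, without a fold threshold 1 gene passed in PULS and 3 in CONS. Genes kept from 1 read on gave 2 in CONS and 2 for the interaction, and DESeq2 gave 3 for the interaction. The shares of all genes called under these settings were not computed. The replicate block gave 2 in CONS, where replicate numbers do not pair the RNA libraries. For pSer2 Pol2, centring each library on its median gave 2 genes at CONS_140, 2 at CONS_180, 2 for PEAK_140 against NADIR_180, 2 for CONS_180 against NADIR_180 and 3 for the difference of time courses. It moved the median of all regions by 0.15 at CONS_140 and by 0.30 for the difference of time courses. Without a variance trend, 1 was called at PEAK_140, 0 at CONS_180 and 0 for PEAK_140 against NADIR_180. With only the libraries compared, 0 were called in these 3, and fewer libraries then set the spread. Testing only regions above the median of mean values gave 2 at CONS_180, 1 for PEAK_140 against CONS_140 and 1 for the difference of time courses. The replicate block gave 0 for PEAK_140 against NADIR_180 and changed no other pSer2 Pol2 count.

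For GR, centring gave 0 regions in each of PEAK_140, CONS_140, CONS_180, PEAK_140 against NADIR_180, CONS_180 against NADIR_180 and the difference of time courses. It subtracts the rise shared by most regions, and 12 called differences changed sign. These were -1.21, -0.69 and -0.75 at PEAK_140 (regions of Hsd11b1 at -36.6, 13.1 and -4.6 kb), -1.01, -0.25, -1.12, -0.78 and -0.51 at CONS_140 (at -36.6, 13.1, -4.6 and 9.4 kb and the Nr3c1 locus), -0.078, -0.11 and -0.10 at CONS_180 (13.1 and -4.6 kb and the Nr3c1 locus), and -0.46 for PEAK_140 against NADIR_180 (-4.6 kb). A window of 100 kb, which holds more regions, gave 12, 10, 10, 7, 8 and 6 regions in the same 6 comparisons. With only the libraries compared, 2 were called for CONS_180 against NADIR_180, and with the replicate block 5 for PEAK_140 against NADIR_180. The cause of changes other than those stated was not tested.

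Leaving out 1 library at a time gave 1 to 3 genes in RNA CONS and 0 to 3 for the RNA interaction. In pSer2 Pol2 it gave 0 to 1 at PEAK_140, 0 to 1 at CONS_140, 0 to 1 at CONS_180, 0 to 1 for PEAK_140 against NADIR_180, 0 to 2 for PEAK_140 against CONS_140 and 0 to 3 for the difference of time courses. In GR it gave 0 to 2 regions at NADIR_180, 2 to 5 at CONS_140, 3 to 5 for PEAK_140 against NADIR_180, 2 to 5 for CONS_180 against NADIR_180 and 1 to 5 for the difference of time courses. Where an arm was left with 1 library, it was assumed to vary like the other groups. Over 1692 values of single genes or regions, 1551 kept their direction and side of the threshold or moved by less than 1 SE, and 68 changed sign with neither value called.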
